A study of Mus musculus with 4 samples.

Results

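The regions described here are single-gene TADs, that is, topologically associating domains (TADs) that hold exactly 1 start of a protein-coding gene. They were chosen by 2 deposited TAD lists, 1 per culture, and the GENCODE M21 annotation of the same genome build (mm10): a TAD was a member when it lay on an autosome, was at most 2000 kb long and contained 1 such start. Since the positions of the TADs chose the members, their number and size are given as descriptions. Of 3997 autosomal TADs of at most 2000 kb in the 2D-cultured cells, 899 were single-gene TADs, from a list of 4467 TADs in all. In the 3D-cultured cells they were 743 of 3861, from a list of 4355. The cells were AML12, a mouse hepatocyte line first grown from an animal transgenic for human TGF-alpha, and they were measured by in situ Hi-C, which counts contacts between genome positions. The 2D culture was a layer of cells in a dish and the 3D culture was spheroids embedded in Matrigel. All cells received 1 mM hydroxyurea to hold them at the G1/S boundary, for 24 h in 2D and 36 h in 3D, so the length of the treatment and the culture cannot be told apart. Each culture had 2 samples but only 1 TAD list, which names no replicate. For that reason no difference between cultures can be set against a spread between replicates, no test was made, and the 95% Wilson intervals cover counting error only, as if TADs or genes were independent, which neighbours are not.

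A TAD is a stretch of chromosome whose parts touch each other more often than they touch the flanking sequence. In mammals its ends often lie near sites bound by CTCF, which stops the loop extrusion carried out by cohesin, and an enhancer usually acts on promoters within its own TAD. A TAD with a single promoter therefore offers an enhancer 1 protein-coding target, an arrangement well known around developmental regulators, whose enhancers can lie far off in gene-poor sequence. Promoters come in a CpG-rich kind, typical of widely used and developmental genes, and a CpG-poor kind, common in genes restricted to a tissue.

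The promoters of 4 members are shown because they span the range described below: the gene of the longest TAD found in both lists, the longest gene, and the liver-class genes with the longest and the shortest TAD in both lists. The last of these was added after its values were seen. Each runs from 250 bases before to 50 bases from the annotated start, is written 5′ to 3′ on the strand of the gene from the mm10 (GRCm38) reference, and has its CG dinucleotides in capitals.
Mgat4c (chr10:101681237-101681536, plus strand): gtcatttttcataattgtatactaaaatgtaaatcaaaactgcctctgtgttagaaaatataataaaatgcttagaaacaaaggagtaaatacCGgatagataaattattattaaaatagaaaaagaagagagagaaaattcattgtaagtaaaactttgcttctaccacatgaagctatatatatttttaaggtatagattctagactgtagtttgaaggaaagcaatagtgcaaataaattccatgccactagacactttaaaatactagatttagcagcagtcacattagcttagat
Rbfox1 (chr16:5885105-5885404, plus strand): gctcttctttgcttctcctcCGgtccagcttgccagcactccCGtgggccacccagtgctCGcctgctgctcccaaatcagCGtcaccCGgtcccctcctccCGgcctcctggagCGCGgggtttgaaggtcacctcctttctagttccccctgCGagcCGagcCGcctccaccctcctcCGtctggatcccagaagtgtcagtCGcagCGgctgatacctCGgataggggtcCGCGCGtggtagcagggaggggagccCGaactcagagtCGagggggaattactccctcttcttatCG
Nr5a2 (chr1:136960399-136960698, minus strand): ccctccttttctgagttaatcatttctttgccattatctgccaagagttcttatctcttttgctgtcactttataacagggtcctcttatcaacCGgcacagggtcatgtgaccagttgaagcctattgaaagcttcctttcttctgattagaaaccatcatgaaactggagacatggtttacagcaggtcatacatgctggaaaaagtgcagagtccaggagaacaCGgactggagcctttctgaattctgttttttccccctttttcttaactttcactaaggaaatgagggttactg
Cyp1b1 (chr17:79715012-79715311, minus strand): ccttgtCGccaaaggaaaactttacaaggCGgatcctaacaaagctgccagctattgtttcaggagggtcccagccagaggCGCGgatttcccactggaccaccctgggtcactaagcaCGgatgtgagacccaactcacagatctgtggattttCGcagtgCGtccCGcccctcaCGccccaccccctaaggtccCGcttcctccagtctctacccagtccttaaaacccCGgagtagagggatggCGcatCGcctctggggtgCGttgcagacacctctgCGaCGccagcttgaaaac
The Mgat4c promoter holds 1 CG and is 27.7% C plus G, and that of Nr5a2 holds 2 at 42.0%. Rbfox1 has 21 CG at 64.3% and Cyp1b1 has 16 at 58.3%. Single-gene TADs thus hold genes of both promoter kinds.

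Single-gene TADs made up 22.5% (21.2 to 23.8%) of the autosomal TADs of at most 2000 kb in 2D and 19.2% (18 to 20.5%) in 3D. The difference of -3.25 percentage points is a description, since each culture has 1 list. With every TAD widened by 1 bin at each end the members were 392 in 2D and 323 in 3D, and with only TADs of at least 200 kb 474 and 440. No other single number of starts was as frequent in 2D, where 831 TADs held 2 starts and 655 held 3. Grouped, 1362 held 3 to 5 starts, 655 held 6 or more and 250 held none. In 3D 793 TADs held 2 starts, 1314 held 3 to 5, 823 held 6 or more and 188 held none. The members covered 278.88 Mb in 2D and 254.8 Mb in 3D, which is 18.7% and 16.9% of the length of all these TADs. Their median size was 200 kb in both lists, with quartiles of 120 and 360 kb (2D) and of 160 and 400 kb (3D). TADs with 2 starts had medians of 200 and 240 kb, and those with 6 or more had 280 and 320 kb.

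**Figure D1:**
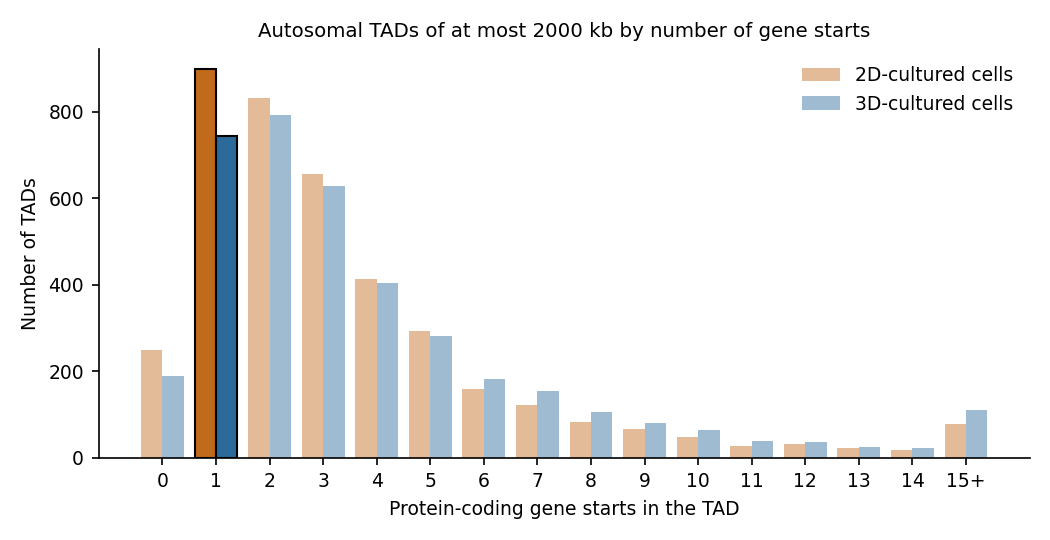
Number of autosomal TADs of at most 2000 kb (vertical axis) by the number of protein-coding gene starts they hold (horizontal axis), in 2D and 3D. The outlined bars are the 899 and 743 single-gene TADs, and from 6 starts on the 3D bars are the taller ones.

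Most members were small, as were most TADs of any number of starts. Of the 3997 TADs of the 2D list under the limit, 1575 were 120 to 160 kb long and 800 were 200 to 240 kb. Of the 3861 in 3D it was 1248 and 775. Of the 899 members in 2D, 425 were 120 to 160 kb long, 165 were 200 to 240 kb, 214 were 280 to 600 kb, 48 were 640 to 1000 kb and 47 were over 1000 kb. In 3D the same counts were 303, 135, 212, 47 and 46, so the smaller total in 3D lay mostly in the classes up to 240 kb. Within the size classes the share of TADs with 1 start was 27.0% in 2D and 24.3% in 3D at 120 to 160 kb. At 200 to 240 kb it was 20.6% and 17.4%, and at 280 to 600 kb 21.3% and 17.5%. Over 1000 kb it was 13.7% in 2D and 14.2% in 3D. Chromosome 18 had the highest share in 2D, with 46 of 138 TADs (33.3%), followed by chromosome 14 with 54 of 177 (30.5%). Chromosome 11 had the lowest in both lists, with 34 of 257 in 2D (13.2%) and 30 of 237 in 3D (12.7%).

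The longest member TADs in 2D were those of Tmem114, a membrane protein gene, at 1960 kb (chr16:6480001-8440000), of Mgat4c, a glycosyltransferase gene, at 1880 kb (chr10:100600001-102480000), and of Fat4, an atypical cadherin of planar polarity, at 1880 kb (chr3:38640001-40520000). In 3D they were those of Fam84a at 2000 kb, of Trps1, a zinc finger repressor of cartilage and hair development, at 1960 kb (chr15:49720001-51680000), and of Kirrel3, a synaptic adhesion protein, at 1960 kb (chr9:33080001-35040000). The Mgat4c TAD had the same ends in both lists. The Fam84a TAD stood at the limit of the rule, at 2000 kb in 3D, and was outside it in 2D at 2040 kb (chr12:13480001-15520000). Beyond the limit lay 40 single-gene TADs in 2D and 34 in 3D, the shortest of them at 2040 kb. The TADs of Trps1 and Kirrel3 were 2880 and 2280 kb long in 2D, also with 1 start, so both genes were alone in both cultures while the rule took them in 3D only.

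The genes of single-gene TADs were long. Their median length was 89.2 kb (82.6 to 96.2 kb) in 2D and 91.1 kb (81.5 to 100.1 kb) in 3D, against 44.4 and 48.7 kb for genes in TADs with 2 starts. It fell to 26.1 and 27.6 kb with 3 to 5 starts and to 10.7 and 11.9 kb with 6 or more. Of the 899 genes in 2D, 406 (45.2%, 41.9 to 48.4%) were at least 100 kb long, and 345 of 743 (46.4%) were in 3D. Among all genes inside TADs of at most 2000 kb, 12.7% and 11.9% were that long. At the short end, 92 member genes in 2D (10.2%) and 79 in 3D (10.6%) were under 10 kb, against 47.6% and 44.4% in TADs with 6 or more starts. The order held at equal TAD size: in TADs of 120 to 160 kb the median gene was 73.9 kb in members, 35.6 kb with 2 starts and 20.1 kb with 3 to 5 starts in 2D, and 71.6, 36.1 and 19.5 kb in 3D. A gene body takes up room in which other genes could start, so length and the number of starts are not independent.

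**Figure D2:**
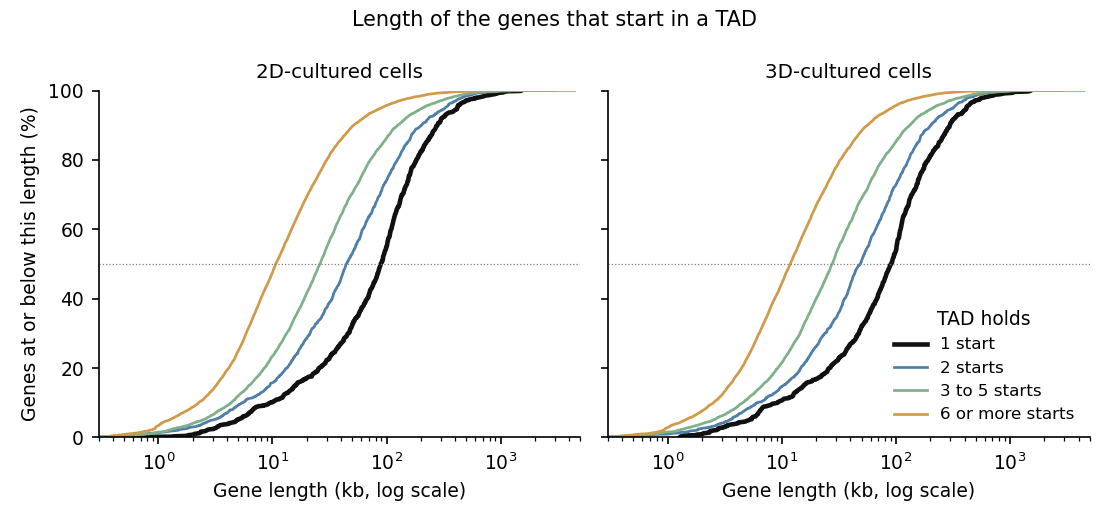
Cumulative share of genes (vertical axis, %) by gene length (horizontal axis, kb, log scale), grouped by the number of starts in the TAD that holds them. The line of single-gene TADs lies to the right of the others in both cultures, crossing 50% at 89.2 kb in 2D and 91.1 kb in 3D.

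The longest member genes were Rbfox1, a neuronal splicing factor (1526 kb, chr16:5885355-7411526), and Pde4d, a cAMP phosphodiesterase (1504 kb, chr13:108449948-109953461), in both lists. The third was Kcnip4, a potassium channel-interacting protein (1135 kb), in 2D and Gpc5, a heparan sulfate proteoglycan (1433 kb), in 3D. None of Rbfox1, Pde4d and Kcnip4 fitted into the TAD that held its start. The Rbfox1 start lay in a TAD of 1200 kb (2D) or 1400 kb (3D), and 931.5 and 691.5 kb of the gene lay beyond the end. Pde4d began 129.9 kb inside a TAD of 920 kb with the same ends in both lists and ran 713.5 kb past it. Gpc5 by contrast lay whole within its 3D TAD of 1880 kb, of which it covered 76.2%.

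The body of the only gene covered a median 36.7% (32.8 to 41.1%) of its TAD in 2D and 36.3% (32.5 to 40.0%) in 3D. The median gene of a TAD with 2 starts covered 15.4% and 15.7%. In 346 members in 2D (38.5%) and 278 in 3D (37.4%) the gene covered at least 50% of the TAD, and in 201 and 171 it covered under 10%. Cover fell with TAD size, from a median 43.6% at 120 to 160 kb to 7.69% over 1000 kb in 2D, and from 46.4% to 8.48% in 3D. Among member TADs of at least 400 kb the fullest was that of Cntnap5a, a neural adhesion gene of the neurexin superfamily, which covered 99.4% of an 800 kb TAD (chr1:115680001-116480000) with the same ends in both cultures. Thsd7a covered 97.6% of a 440 kb TAD in 2D, but in 3D its start shared a TAD of 1000 kb with 2 others. Cntnap5b covered 97.3% of its 480 kb TAD in 3D, while in 2D its start was 27.2 kb from the end of a TAD of 1520 kb with 2 starts. The gene of Cntnap5a also ran 107.3 kb past the end.

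The only gene often crossed a border. In 2D 337 of 899 member genes (37.5%, 34.4 to 40.7%) ran past the end of the TAD that held their start, and in 3D 256 of 743 (34.5%, 31.1 to 37.9%) did, against 30.02% and 29% of genes in TADs with 2 starts and 7.03% and 7.16% with 6 or more. By more than 40 kb, the width of 1 bin, it was 135 genes (15%, 12.8 to 17.5%) in 2D and 86 (11.6%, 9.47 to 14.1%) in 3D. With 2 starts it was 10.6% (9.2 to 12.2%) in 2D and 10.5% (9.05 to 12.1%) in 3D, so the intervals overlapped in 3D. The share rose with gene length, from 12.7% of the genes under 50 kb to 53.6% at 100 to 200 kb and 76.9% (20 of 26) at 500 kb or more in 2D. Genes of TADs with 2 or more starts crossed in 10.2% under 50 kb, 29.5% at 100 to 200 kb and 42.1% at 500 kb or more in 2D. In 3D it was 13.1% of member genes against 9.3% under 50 kb. It was 26.7% against 23.8% at 50 to 100 kb, 51.2% against 26.7% at 100 to 200 kb and 66.7% against 38.4% at 500 kb or more. The intervals overlapped under 50 kb in both lists, and at 50 to 100 kb and at 500 kb or more in 3D. TAD size was not matched here. The median TAD was 200 kb for members in both lists. It was 200 and 240 kb with 2 starts and 280 and 320 kb with 6 or more. Of the 337 genes crossing in 2D, 231 ended in another TAD and 106 outside any TAD, and 217 (64.4%) also crossed an end in the 3D list.

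Over all sizes, the start of the only gene lay more evenly along the TAD than the starts in TADs with 2 or with 3 to 5. In 2D 399 of 899 starts (44.4%, 41.2 to 47.6%) were within 40 kb of an end, where 41.0% of the length of these TADs lies on average. In 3D it was 302 of 743 (40.6%, 37.2 to 44.2%) for 38.3% of the length. In TADs with 2 starts 51.0% and 46.5% of starts were there for 38.3% and 36.5% of the length, and with 3 to 5 starts 50.6% and 47.8% for 36.4% and 33.6%. The outermost 10% of the TAD at each end held in all 23.1% (20.5 to 26%) of the member starts in 2D and 22.5% in 3D, but 31.5% and 31.0% of starts in TADs with 2. In 2D the excess at the ends was small in short members and wider in long ones. At 120 to 160 kb the outermost bins held 59.8% of the starts for 59.5% of the length in 2D, and at 280 to 600 kb 29.4% (23.7 to 35.9%) for 21.5%. In 3D at 280 to 600 kb they held 25% (19.7 to 31.2%) for 21.7%, an interval that includes the even share. Longer members were not even in 2D, with 20.8% (11.7 to 34.3%) of the starts for 10.1% of the length at 640 to 1000 kb and 19.1% (10.4 to 32.5%) for 6.3% over 1000 kb. The last share was close to the 23.6% (16.7 to 32.4%) of TADs with 2 starts of that size. In 3D the shares were 12.8% (5.98 to 25.2%) for 10.2% of the length, which also includes the even share, and 13% (6.12 to 25.7%) for 6.03%.

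**Figure D3:**
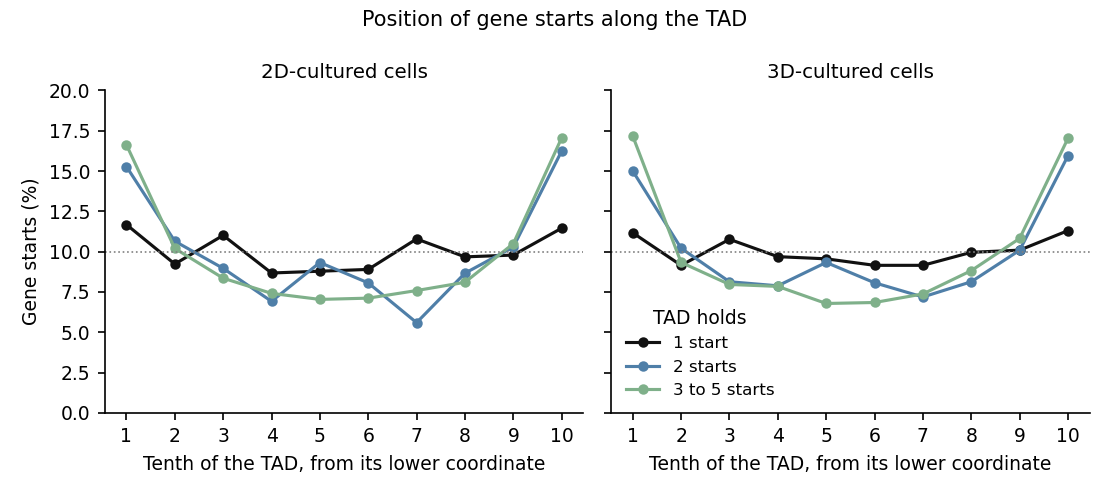
Share of gene starts (vertical axis, %) in each 10% of the length of the TAD that holds them (horizontal axis, from the lower coordinate), for TADs with 1, 2 and 3 to 5 starts. Members, in black, stay near the dotted line at the 10% of an even spread, with 11.7% and 11.5% in the first and the last 10% of the length in 2D.

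Most member genes pointed into their TAD, though most of those under 50 kb did not. In 2D 561 of 899 (62.4%, 59.2 to 65.5%) were transcribed away from the nearest end, and in 3D 463 of 743 (62.3%, 58.8 to 65.7%). Genes of TADs with 2 or more starts did so in 49.6% and 50.1%, a difference of 12.8 points (9.47 to 16) in 2D and 12.2 (8.58 to 15.7) in 3D. The members' direction went with gene length. A gene that runs inward takes up room in which others could start. Direction and the rule for members are thus not independent. Member genes of at least 100 kb pointed inward in 79.3% in 2D and 78.0% in 3D, against 62.4% and 61.8% of genes that long in fuller TADs. Under 50 kb it was 40.8% of member genes against 47.6% in 2D, a difference of -6.81 points (-12.4 to -1.01), and 43.5% against 48.5% in 3D, whose interval (-11.2 to 1.43) includes 0. Of the starts within 40 kb of an end, 69.4% pointed inward in 2D and 73.8% in 3D, and of those farther inside 56.8% and 54.4%. The 2 lists share 553 of these genes, so they are not separate evidence.

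CpG-rich promoters, here those with an observed to expected CpG ratio of at least 0.6 and at least 50% C plus G in the 300 bases shown above, were more frequent in single-gene TADs. They were 542 of 899 in 2D (60.3%, 57.1 to 63.4%) and 450 of 743 in 3D (60.6%, 57.0 to 64.0%). The shares with 2, 3 to 5 and 6 or more starts were 55.1%, 49.9% and 33.7% in 2D and 56.1%, 51.4% and 37.6% in 3D. Over all autosomal protein-coding genes it was 42.5%. The intervals with 2 starts, 52.7 to 57.5% in 2D and 53.7 to 58.5% in 3D, overlapped those of members. Against all genes of TADs with 2 or more starts the difference was 17.8 points (14.5 to 21.1) in 2D and 16.5 (12.8 to 20.005) in 3D. By gene length the member share was the higher in every class of both lists. The intervals were apart only under 50 kb. There it was 53.4% in members and 38.8% in fuller TADs in 2D and 54.9% and 40.4% in 3D. In the longer classes the intervals overlapped in both lists. Intervals of the difference were not computed by length, so overlap does not show equal shares. At 50 to 100 kb it was 65.2% (58.4 to 71.4%) against 56.2% (53.8 to 58.7%) in 2D and 65.2% (57.6 to 72.1%) against 58.2% (55.8 to 60.4%) in 3D. At 100 to 200 kb it was 61.3% (55.1 to 67.1%) against 55% (51.7 to 58.2%) in 2D and 60.5% (53.7 to 66.9%) against 57.1% (54 to 60.2%) in 3D. At 200 kb or more it was 65.2% (57.5 to 72.2%) against 53.7% (49.5 to 57.8%) in 2D and 65% (56.8 to 72.4%) against 55.4% (51.2 to 59.5%) in 3D. Of the 553 genes that met the rule in both lists 63.7% had such a promoter. It was 54.9% of the 346 that met it in 2D only and 51.6% of the 190 in 3D only, groups that the size limit helps to set.

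Single-gene TADs were not empty of other transcripts. In 2D 540 (60.1%) held the start of at least 1 long non-coding RNA gene, 169 (18.8%) that of a microRNA and 497 (55.3%) that of a pseudogene, and 159 (17.7%) held none of these 3 kinds. In 3D it was 456 (61.4%), 149 (20.1%), 427 (57.5%) and 132 (17.8%). With 2 starts the shares of the 3 kinds were 66.3%, 18.1% and 60.6% in 2D and 69.1%, 20.6% and 62.0% in 3D. Pseudogene starts per Mb were 3.78 and 3.65 in members, 4.22 and 3.94 with 2 starts and 4.29 and 4.42 without a protein-coding start. Per Mb the members held 4.69 long non-coding starts in 2D and 4.43 in 3D, close to the 4.70 and 4.73 of TADs with 2 starts and above the 3.21 and 3.22 of TADs without a protein-coding start. Their C plus G content was a median 43.5% in 2D and 43.3% in 3D, between 41.5% and 41.7% without starts and 46.4% in both lists with 6 or more, and repeats made up 28.2% and 28.8%. The nearest other protein-coding start, on either side of a border, was a median 115 kb (2D) or 120 kb (3D) away, against 56.3 and 60.7 kb with 2 starts, a gap that the rule for members itself widens since it leaves no other start inside the TAD. In the 200 kb on each side of the TAD, which the rule did not use, the median was 4 starts for members and for TADs with 2 starts in both lists, and the means were 4.56 and 5.01 in 2D and 4.5 and 4.9 in 3D. Even so, 74 member starts in 2D and 53 in 3D had one within 40 kb, across a border. The most isolated was Pcdh7, a protocadherin, whose nearest neighbour started 3719 kb away. Flrt2, a guidance receptor, followed at 2567 kb and Robo1, the receptor for Slit repellents, at 1994 kb.

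Most ends of the members met another TAD directly. Both ends did in 406 (45.2%) in 2D and 398 (53.6%) in 3D, 1 end in 378 and 296, and neither end in 115 (12.8%) and 49 (6.59%). This did not set members apart from TADs with 2 starts, of which 46.7% and 57.8% met a TAD at both ends, with intervals that overlapped. The shares were 41.7% and 53.04% with 3 to 5 starts and 38.2% and 55.04% with 6 or more. Where a TAD abutted, it held 6 or more starts in 11% of cases in 2D and 13.3% in 3D, against 16.9% and 22.4% around all autosomal TADs of at most 2000 kb. It was itself a TAD with 1 start in 25% and 22.5%, against 22.0% and 18.6%. Runs of abutting members reached 4 TADs, 5 times in each list. The run of Lmod3, Frmd4b, Mitf and Gm765 on chromosome 6 (chr6:97240001-98520000) had the same ends throughout in both lists, with TADs of 320, 160, 320 and 480 kb. Mitf encodes the master transcription factor of melanocytes, and Lmod3 an actin-nucleating protein of muscle. The run of Galr1, Mbp, Zfp236 and Zfp516 on chromosome 18 was also shared, with TADs of 200, 160, 120 and 280 kb. A 2D run on chromosome 18 held Smad7 and Smad2, an inhibitor and a transducer of TGF-beta signals, at both sides of Ctif and Zbtb7c. In 3D Smad7 and Ctif lay together in a TAD of 760 kb with 4 starts, and Smad2 was still alone in 160 kb. Another 2D run on chromosome 6 held Gng12, Gadd45a, Serbp1 and Il12rb2, of which Gadd45a and Serbp1 were alone in 3D too. The 3D runs that 2D lacked were those of Angptl1, Ralgps2, Tex35 and Rasal2, of Riok2, Lix1, Lnpep and Vmn2r90, and of Slco3a1, Sv2b, Akap13 and Klhl25.

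The CTCF core motif, searched on both strands as an exact match to its 12-base consensus, was denser at the ends of the members than inside them. Within 40 kb of an end there were 10.4 matches per Mb in both lists, against 3.24 per Mb farther inside in 2D, 3.12 in 3D and 4.97 over the autosomes. At least 1 match lay within 40 kb of 54.2% (51.9 to 56.5%) of member ends in 2D and 54.4% (51.8 to 56.9%) in 3D, and of 29.7% of all autosomal windows of the same 80 kb. TADs with 2 starts had 55.9% and 55.7%, TADs with 6 or more 62.4% and 61.1%, and TADs with no start 42.4% and 46.3%. Of the matches at member ends 54.0% in 2D and 54.3% in 3D pointed into the TAD. A pair pointing inward, 1 at each end, was found in 128 members in 2D (14.2%) and 98 in 3D (13.2%), and a pair pointing outward in 101 (11.2%) and 81 (10.9%). TADs with 2 starts were close to this, with 53.8% and 52.9% of matches pointing in and inward pairs in 15.4% and 14%. Inward pairs were in 13.3% and 13.8% of TADs with 3 to 5 starts and in 16.9% with 6 or more in both lists. Without a start it was 7.6% and 8.51%. Members with a counterpart in the other list had a match at 56.9% (54 to 59.7%) of ends in 2D, against 49.9% (46.1 to 53.6%) for those without. In 3D it was 55.7% (52.8 to 58.6%) against 50.3% (45.2 to 55.4%), with intervals that overlap. A match is a description of the letters and not a site of binding, which was not measured.

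Inward pairs are shown for 2 members whose TAD had the same ends in both lists, chosen after the matches were seen because both genes are known developmental regulators. Foxa2 is a pioneer factor of liver and endoderm, and Otx2 a homeobox gene of the forebrain and eye. Each sequence is written on the strand of the match, from the mm10 reference, with the motif in capitals and 14 bases on both sides.
Foxa2 left end (chr2:147808201-147808240, plus strand, 8.21 kb inside): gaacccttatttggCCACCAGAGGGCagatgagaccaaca
Foxa2 right end (chr2:148121808-148121847, minus strand, 1.82 kb outside): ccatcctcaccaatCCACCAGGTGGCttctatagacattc
Otx2 left end (chr14:48524295-48524334, plus strand, 4.31 kb inside): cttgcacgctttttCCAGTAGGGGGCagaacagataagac
Otx2 right end (chr14:49032281-49032320, minus strand, 32.3 kb outside): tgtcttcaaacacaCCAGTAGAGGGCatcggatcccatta
The TADs between these matches measured 320 kb for Foxa2 (chr2:147800001-148120000) and 480 kb for Otx2.

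Gene classes differed in how often a member was the only start of its TAD. Over all autosomal genes inside TADs of at most 2000 kb, 6.28% were alone in 2D and 4.74% in 3D, and the classes are read against these values. No class was matched for gene length. In 2D 406 of 1825 genes of at least 100 kb were alone, and 92 of 4723 under 10 kb. In 3D it was 345 of 1866 and 79 of 5113. The median gene was 115 kb in neural adhesion and guidance, 15.7 kb in developmental transcription factors and 9.04 kb in plasma proteins. It was 7.81 kb in genes of the mitochondrial ribosome and respiratory chain, 6.19 kb in olfactory and vomeronasal receptors and 1.62 kb in keratin and epidermal genes. The lists are symbol lists without a test, so their counts describe the classes and no more. Developmental transcription factors were alone in 30 of 215 cases (14%, 9.95 to 19.2%) in 2D and 30 of 226 (13.3%, 9.46 to 18.3%) in 3D, and 22 of them were alone in both. The longest TADs with identical ends were those of Rorb, a nuclear receptor of retina and brain (1520 kb), of Klf5, a Krüppel-like factor of epithelia (800 kb), and of Foxo1, the insulin-regulated forkhead factor (760 kb). Rorb began 271 kb and Klf5 179 kb from the nearest end. Foxo1 began 28.3 kb from it. Between 2.04% and 11.9% of these TADs was covered by the gene, so nearly all of their length lay outside it.

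Adhesion and guidance genes of the nervous system were alone in 28 of 178 cases in 2D (15.7%, 11.1 to 21.8%) and in 17 of 187 in 3D (9.09%, 5.75 to 14.1%), 14 of them in both. Pcdh20 had a TAD of 1600 kb, Pcdh7 of 1080 kb and Slitrk6 of 960 kb, each with the same ends in both lists. Pcdh20 and Slitrk6, a protocadherin and a synaptic receptor, are short genes of 6.65 and 6.57 kb that took 0.42% and 0.68% of their TAD, while Pcdh7 took 38.5%. Some genes alone in 2D shared a TAD in 3D. Sema3a and Sema3e, which encode secreted guidance signals, had TADs of 1120 and 320 kb to themselves in 2D and lay in a TAD of 1800 kb in 3D. Robo1 went from 760 kb with 1 start to 3360 kb with 4. Nrp1, a semaphorin co-receptor, went from 1400 to 1600 kb, with 3 starts in 3D.

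Ion channel genes were alone in 19 of 181 cases in 2D (10.5%, 6.82 to 15.8%) and 14 of 192 in 3D (7.29%, 4.39 to 11.9%), 11 in both. Kcnn2, a calcium-activated potassium channel, had a TAD of 1160 kb, Trpm3, a cation channel, of 1080 kb and Piezo2, a mechanosensitive channel, of 680 kb, all identical between cultures. Trpm3 covered 72.3% of its TAD and ran 75.4 kb past the end. G protein-coupled receptors other than olfactory ones were alone in 18 of 184 cases in 2D (9.78%) and 17 of 189 in 3D (8.99%), and 11 were alone in both. The serotonin receptor genes Htr1a and Htr7 had identical TADs of 1480 and 1120 kb, and Calcrl, a receptor component for calcitonin gene-related peptide and adrenomedullin, of 440 kb. Htr1a is 4.48 kb long and took 0.30% of its TAD.

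Growth factor and signalling genes were alone in 18 of 156 cases in 2D (11.5%, 7.42 to 17.5%) and 18 of 166 in 3D (10.8%, 6.97 to 16.5%), 13 in both. Angpt1, a ligand of the endothelial receptor Tie2, had an identical TAD of 1000 kb, Inhbb, an inhibin and activin subunit, of 360 kb and Tgfbr2, the type II receptor for TGF-beta, of 320 kb. Matrix genes were alone in 12 of 117 cases in 2D (10.3%, 5.96 to 17.1%) and 11 of 120 in 3D (9.17%), 8 in both. Gpc6, a glypican gene of 1051 kb, filled 93.9% of an identical TAD of 1120 kb, and Fn1, which encodes fibronectin, 11.3% of one of 600 kb. Spon1, a spondin, filled 62.3% of 440 kb. Solute carriers were near the background, with 18 of 243 in 2D (7.41%, 4.74 to 11.4%) and 17 of 262 in 3D (6.49%, 4.09 to 10.1%). Slc24a2, Slc7a14 and Slc6a6, the last a taurine transporter, had identical TADs of 440, 360 and 240 kb.

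The liver classes differed in their counts, and no test of the difference was made. Liver transcription factors were alone in 5 of 28 cases in 2D (17.9%, 7.88 to 35.6%) and 6 of 30 in 3D (20%, 9.51 to 37.3%), with 5 in both. Few genes of the enzymes and secreted products of hepatocytes were members. Cytochrome P450 genes counted 1 of 76 in 2D and 1 of 80 in 3D, conjugation enzymes 0 of 49 and 0 of 52, plasma proteins 0 of 88 and 1 of 96, and genes of the urea cycle, gluconeogenesis and bile acids 1 of 37 and 1 of 44. The upper ends of the intervals were 7.08%, 7.27%, 4.18% and 13.8% in 2D, so the plasma proteins alone had an interval below the 6.28% of all genes. In 3D the 4 upper ends, 6.75%, 6.88%, 5.67% and 11.8%, were all above 4.74%. The interval of the liver transcription factors overlapped that of the urea cycle class in both lists, and none of the other 3. Some genes of these classes lie in clusters, such as Serpina1a in a TAD with 27 starts in both lists. Cyp2c38 lay in one with 15 starts in 2D and 11 in 3D.

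Among the regulators TAD sizes ran from 200 to 1720 kb. Nr5a2, a nuclear receptor of bile acid synthesis, lay alone in 1360 kb in 2D (chr1:136720001-138080000) and 1320 kb in 3D, with its gene over 8.67% and 8.93% of it. Prox1, a homeobox factor of hepatocytes and lymphatic endothelium, lay in 840 and 880 kb, 211 kb from the nearest end in both lists. Foxa2 lay 73.0 kb inside its 320 kb, covering 1.28%. Gata6, a zinc finger factor of endoderm, lay in 200 and 280 kb. Rxra, the partner of many nuclear receptors, lay in 240 and 200 kb. Ppargc1a, a coactivator of gluconeogenesis and mitochondrial genes, was alone in 1720 kb in 3D (chr5:50440001-52160000) and shared a TAD of 2680 kb with 5 other starts in 2D. Among the effectors, Cyp1b1, a P450 induced through the aryl hydrocarbon receptor, lay in 160 kb (chr17:79680001-79840000) and Abca1, a cholesterol exporter, in 360 kb (chr4:53040001-53400000), each the same in both lists. Apob, the apolipoprotein of very low density lipoprotein, lay outside any TAD in 2D and 22.4 kb inside a TAD of 120 kb in 3D, whose end the gene crossed by 16.8 kb.

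Housekeeping genes and clustered families had shares under those of all genes. The values over genes of all lengths were 6.28% in 2D and 4.74% in 3D, and only some intervals lay clear of them. They did in both lists for mitochondrial genes (0.15 to 4.61% and 0.13 to 4.11%), for keratin and epidermal genes (0 to 3.85% and 0 to 3.56%) and for olfactory and vomeronasal receptors. Those of proteasome, translation and RNA polymerase genes did in 3D alone (0.37 to 4.73%), and those of the other classes of this kind included the value of all genes in both lists. Cytosolic ribosomal protein genes counted 1 of 54 in 2D, which was Rps13, and 0 of 56 in 3D. Genes of the mitochondrial ribosome and respiratory chain counted 1 of 119 and 1 of 134, the same Cox18, an assembly factor of cytochrome oxidase, in a TAD of 160 kb. Those of proteasome, translation and RNA polymerase counted 3 of 125 (2.40%) and 2 of 150 (1.33%), and those of cell cycle and replication 2 of 77 and 1 of 82, with E2f3 in an identical TAD of 120 kb. Zinc finger genes counted 11 of 273 (4.03%) and 9 of 311 (2.89%). Zbtb7c, Zfp516 and Zfp236 on chromosome 18 had identical TADs of 440, 280 and 120 kb. Olfactory and vomeronasal receptors counted 5 of 752 (0.66%, 0.28 to 1.55%) and 2 of 760 (0.26%, 0.072 to 0.95%), the 2 being Olfr161 and Vmn2r90. Keratin and epidermal genes counted 0 of 96 and 0 of 104, histone genes 0 of 55 and 0 of 39, and Hox genes 1 of 39, which was Hoxc4, and 0 of 38. Olfactory receptor, keratin, histone and Hox genes lie in arrays of neighbouring copies.

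**Figure D4:**
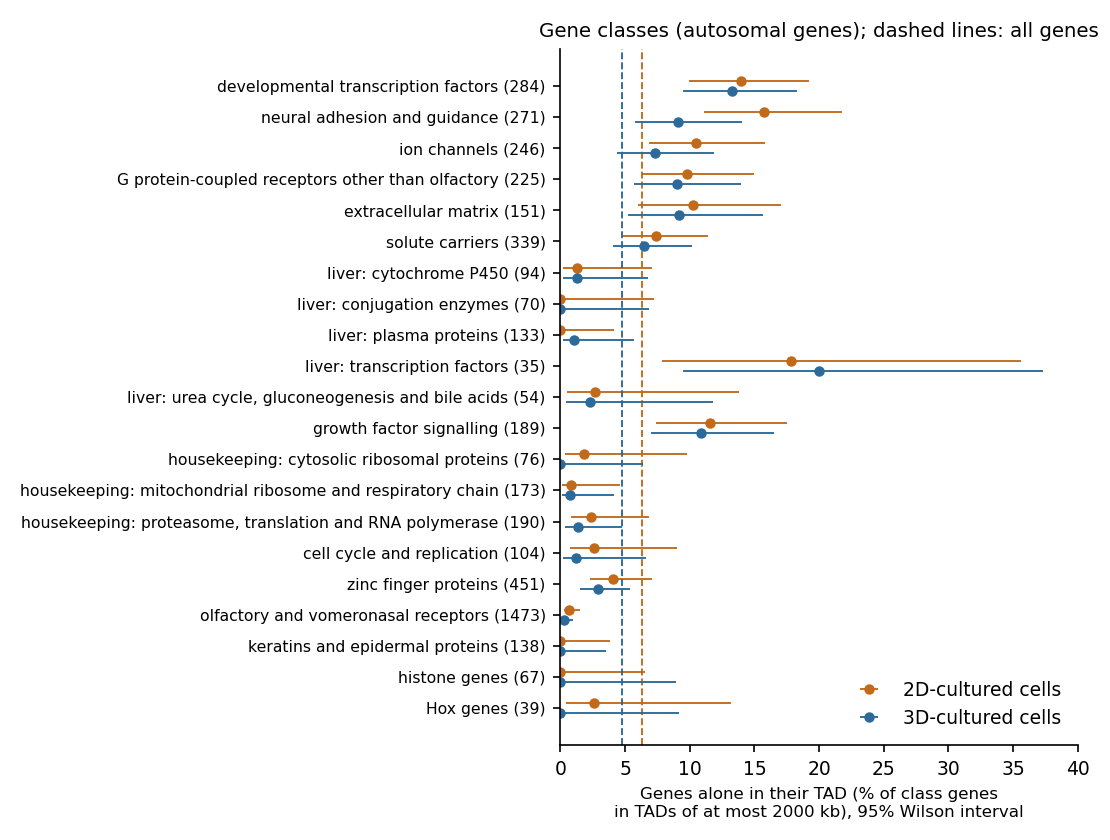
Share of the genes of each class that were the only start of their TAD (horizontal axis, %), with 95% Wilson intervals, in 2D and 3D, with dashed lines at the values over all genes, 6.28% and 4.74%, and the number of autosomal genes of the class in brackets. The interval of developmental transcription factors lies above the line of its culture in both lists and that of olfactory and vomeronasal receptors below it.

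Agreement between the cultures depended on the list from which it was read. A counterpart was a TAD of the other list with both ends within 40 kb. Of all autosomal TADs of at most 2000 kb, 66.7% in 2D and 69.1% in 3D had one. Of the single-gene TADs, 560 of 899 in 2D (62.3%, 59.1 to 65.4%) and 561 of 743 in 3D (75.5%, 72.3 to 78.5%) did. In 2D this was below the 70.3% of TADs with 2 or more starts, by -7.97 points (-11.6 to -4.42), and in 3D above their 68.3%, by 7.21 points (3.59 to 10.6). The TADs with a counterpart were nearly as many in both lists, 560 and 561 members and 2001 fuller TADs in each. The change of sign thus lies in the totals, 899 and 743 members and 2848 and 2930 fuller TADs. By class of starts, 2D gave 41.6% with none, 72.1% with 2, 69.3% with 3 to 5 and 69.9% with 6 or more. 3D gave 56.9%, 74.5%, 71.4% and 57.4%, so members in 3D were close to TADs with 2 starts and farthest from those with 6 or more and with none. Both ends were identical in 407 members, which is 45.3% of those in 2D and 54.8% of those in 3D.

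The difference from fuller TADs was also read by TAD size, and the intervals of the size classes overlapped within each list. The totals of each list enter here as well. At 280 to 600 kb 601 of 750 fuller TADs had a counterpart in 2D and 621 of 973 in 3D. In 2D members of 280 to 600 kb had a counterpart in 70.6% against 80.1% of TADs with 2 or more starts, a difference of -9.57 points (-16.5 to -3.13), at 120 to 160 kb it was -6.51 (-12.1 to -0.95) and at 200 to 240 kb -6.21 (-14.5 to 1.49), which includes 0. In 3D members of 280 to 600 kb were above the others by 12.6 points (5.76 to 18.6), at 200 to 240 kb by 9.27 (1.12 to 16.03) and at 120 to 160 kb by 2.10 (-3.91 to 7.71). At 280 to 600 kb in 3D the low value was that of TADs with 6 or more starts, 48.7% (43.4 to 54%), while members at 76.4% (70.3 to 81.6%) were close to TADs with 2 starts at 74.3% (68.3 to 79.6%) and overlapped those with 3 to 5 at 70.6% (66.02 to 74.9%). From 640 kb up the intervals included 0 in both lists. Members flanked by a TAD at both ends had a counterpart in 68.0% in 2D and 77.9% in 3D, and those flanked by none in 43.5% and 59.2%. With a CpG-rich promoter it was 66.2% against 56.3% without in 2D, and 78.4% against 71.0% in 3D. By gene length it was 58.9% under 50 kb, 61.2% at 50 to 100 kb, 66.5% at 100 to 200 kb and 63.3% at 200 kb or more in 2D. In 3D it was 73.8%, 73.9%, 76.6% and 78.6%. With the start within 40 kb of an end it was 56.6% against 66.8% farther inside in 2D, and 73.5% against 76.9% in 3D.

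Followed gene by gene within the limit of 2000 kb, 553 genes were the only start of their TAD in both lists, out of 1089 that were so in either. This count depends on the exact ends: with every TAD widened by 40 kb at each end it was 221, and with every TAD narrowed by 20 kb at each end it was 838. They were 61.5% (58.3 to 64.6%) of the 899 in 2D and 74.4% (71.2 to 77.4%) of the 743 in 3D. In 499 of them the TAD was the same within 40 kb, and in 54 it had other ends. Of the 346 genes that met the rule in 2D only, 267 shared a TAD with other starts in 3D, 104 of them in a TAD with 2 starts, 124 with 3 to 5 and 39 with 6 or more. A further 60 lay outside any TAD and 19 in TADs over 2000 kb. Of the 190 that met the rule in 3D only, 116 shared a TAD in 2D, 60 lay outside TADs and 14 in TADs over 2000 kb. Some genes in TADs over 2000 kb, such as Trps1, were alone there too. Without the size limit 590 genes were alone in both lists. A shared TAD in the other list was thus met by 29.7% (26.8 to 32.8%) of the members of 2D and 15.6% (13.2 to 18.4%) of those of 3D.

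**Figure D5:**
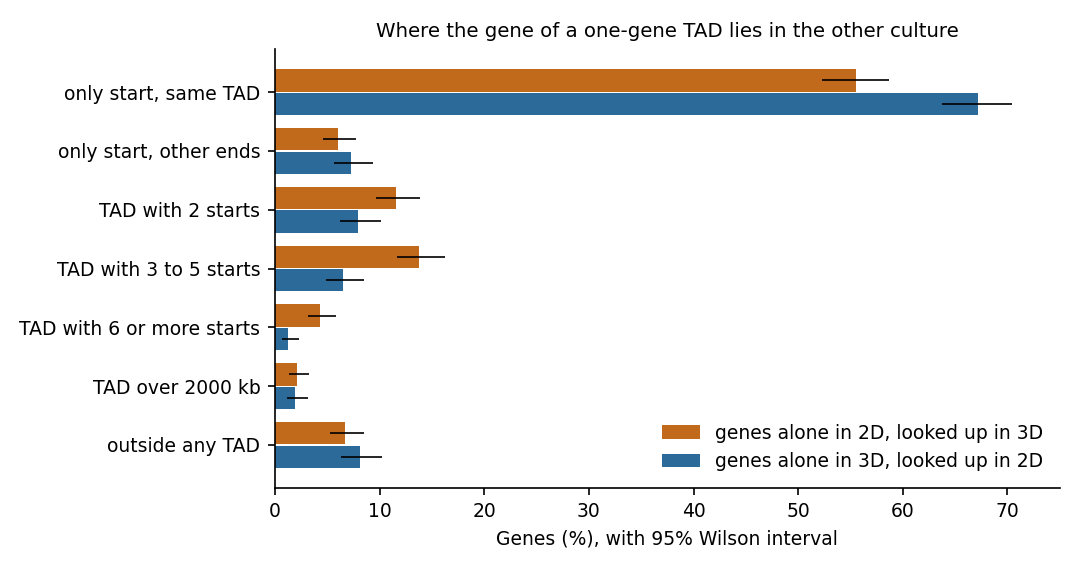
Position in the other list of genes that were the only start of a TAD, as a share (horizontal axis, %) with 95% Wilson intervals, from 2D to 3D and from 3D to 2D. The same TAD within 40 kb was met by 55.5% and 67.2%, and a TAD with 3 to 5 starts by 13.8% and 6.46%.

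The 267 genes that gained company in 3D were chosen because their TAD held more starts there. A larger 3D TAD that encloses the 2D one thus follows largely from the choice, and the counts only describe it. The 3D TAD contained the 2D TAD to within 1 bin in 244 of the 267 (91.4%), and in 256 it was the larger of the pair. These 2D TADs had a median of 160 kb and the 3D ones of 400 kb, and in 147 cases (55.1%) exactly 1 end was kept within 40 kb. In 49 both ends were kept within 40 kb, so that a move of 1 bin was enough to take in another start. The reverse choice gave the same picture. For the 116 members of 3D whose gene shared a TAD in 2D, the 2D TAD was the larger in 111. It contained the 3D one to within 1 bin in 96, with medians of 220 kb for the 3D TADs and 440 kb for the 2D ones. Exactly 1 end was kept within 40 kb in 40 of the 116 (34.5%) and both in 51, so moves of at most 1 bin were a larger part of this group, and the median difference in size was 80 kb against 160 kb for the 267. The 2D list also had more genes outside all TADs, with 4726 autosomal starts against 3312 in 3D.

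Where a gene was alone in both lists its TAD had nearly the same size. Of the 553, 407 TADs (73.6%) had identical ends, 117 kept 1 end and moved the other, and 29 moved both. In 3D 85 were larger, 57 smaller and 411 of equal size, with medians of 200 kb (2D) and 240 kb (3D). Of the 175 ends that moved, 111 moved by 1 bin. The end nearest the gene start stayed in place in 476 (86.1%) and the far end in 455 (82.3%). The largest gains were those of Cdh6, a cadherin, by 920 kb from 120 kb, of Slco3a1, an organic anion transporter, from 200 to 760 kb, and of Efemp1, a fibulin of the matrix, from 120 to 520 kb. The Cdh6 start lay 13.7 kb from the nearest end in 2D and 134 kb from it in 3D. The largest loss was that of AI593442, from 960 to 600 kb. Those of Myh15, a myosin heavy chain, from 440 to 120 kb and of Gpr149, an orphan receptor, from 640 to 360 kb followed. In all 3 of these 1 end was at the same position in both lists.

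Some members had a gene that lay outside every TAD in the other list. The longest of these in 2D were those of Epm2a, which encodes the glycogen phosphatase laforin (680 kb), of Asap2, an Arf GTPase-activating protein (440 kb), and of Htr1f, a serotonin receptor (360 kb). In 3D they were those of Cblb, a ubiquitin ligase (1280 kb), of Prdm1, a zinc finger repressor of plasma cell and germ cell differentiation (560 kb), and of Pdgfc, a platelet-derived growth factor (520 kb). The Cblb start lay 8.78 kb from the end of its 3D TAD, and those of Asap2 and Epm2a 9.54 and 23.4 kb from the end of their 2D TADs. A move of 1 bin would place any of them outside. The starts of Htr1f, Prdm1 and Pdgfc lay 134, 248.5 and 76.4 kb inside.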

How the data were processed

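The authors mapped in situ Hi-C reads of AML12 cells to mm10 with Bowtie 2 (2.2.9), normalised the contact matrices with ICE at 40 kb, scaled each chromosome to equal depth in both cultures and called TADs with Armatus at gamma 0.8. They deposited 1 list of TAD positions per culture, which is the only kind of value used. Contact counts and the depth behind a TAD were not used here. All 8822 TADs start and end at multiples of 40 kb, so positions are precise to 1 bin, and the smallest is 120 kb.

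Gene starts are the 5′ ends of GENCODE M21 protein-coding gene records (20807 on the 19 autosomes), and a start belongs to a TAD when it lies between its ends. CpG content and motif matches were read from GRCm38.p6, the same build. Shares carry 95% Wilson intervals and differences Newcombe intervals; intervals of medians are order statistics. Scripts (Python 3, pandas, numpy, scipy) were tested on simulated lists. No test was run, since each culture has 1 list. The members and the gene lists were chosen with earlier results of these data known, and 209 symbols that matched a class by spelling only were taken out after counts had been seen. Named genes were, per list, those of the 3 longest TADs, the 3 longest genes, the 3 of largest cover in TADs of at least 400 kb, the 3 largest gains and losses in size, the longest runs, the 3 longest TADs whose gene lay outside TADs in the other list, those at the 2000 kb limit, and for each class up to 3 with identical TADs (liver classes up to 6, identical or not); symbols of the form Gm plus number or ending in Rik were left out except within a run. Further genes named as examples (such as Sema3a, Nrp1 and Otx2) and the most isolated genes were chosen after their values were seen. A few items that these rules select are not reported here. Alternatives are given in the closing section.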

Additional observations from a re-analysis of the deposited data

How the results depend on the processing

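The number, size and counterpart share of the members, the length, cover, border crossing and CpG-rich promoters of their genes and the share of starts in the outermost bins were recomputed under other choices; direction, motif matches, non-coding starts, neighbours, fates and class shares were not. In all, 54 of 92 alternative values stayed within the interval of the reported one (or within 1.5 times a count). There were more single-gene TADs in 2D than in 3D under all 8 choices and a higher counterpart share in 3D under all 4. The second result is not separate from the first. With identical ends the same 407 TADs are divided by 899 and by 743, so the share had to be higher in 3D. The reported shares likewise rest on 560 and 561 TADs. With TADs of at least 200 kb the members were 474 in 2D and 440 in 3D, with 315 genes alone in both, a median gene of 112 and 111 kb, a cover of 29.9% and 29.5%, a median TAD of 320 and 340 kb, and 30.6% and 26.4% of starts in the outermost bins. With TADs widened by 40 kb at each end there were 392 and 323 members, 221 genes alone in both and a median gene of 102 and 104 kb. Narrowed by 20 kb they gave 838 genes alone in both and a median gene of 74.5 and 76.2 kb. Counting any protein-coding transcript start gave a median gene of 106 and 107 kb and a cover of 46.8% and 46.2%. With identical ends required, the counterpart share came to 45.3% (2D) and 54.8% (3D), with 80 kb allowed to 70.4% and 81.7%, and it was 78.8% and 86.1% for a reciprocal overlap of 50%, and 72.3% in 3D for one of 80%. As border zones of other width, 80 kb at each end held 76.6% and 71.7%, and the outermost 10% at each end 23.1% and 22.5%. Genes ran more than 40 kb past a border in 15% and 11.6%. A stricter promoter rule (ratio 0.75, 55% C plus G) gave 41.6% and 41.0%. No paired analysis was possible because each culture has 1 list with no replicate of its own, and no replicate could be left out. The bin of 40 kb limits every position.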
